A study of Drosophila melanogaster with 15 samples.

Results

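Brains of C2L larvae of Drosophila melanogaster were compared with brains of Oregon larvae, 3 libraries each, taken by genotype label from the 15 libraries of the series. C2L larvae carried C(2L)SH1, a compound chromosome in which the copies of the left arm of chromosome 2 are joined at a shared centromere. They were the control stock for T2L larvae, read by elimination as C(2L)SH1/+, which hold an extra copy of that arm. C2L larvae were dissected 5 days after egg laying, and no age was given for the larvae of Oregon, a standard laboratory strain. All were females at late L3 kept at 25 °C, each library pooled 3 brains, and the libraries of a group carried the batch labels 4, 5 and 6. Both groups should hold 2 copies of every gene on 2L, so the comparison asks how much a control stock with a rearranged chromosome differs from a common reference strain when gene dose is the same. Strain background, the compound chromosome and any difference in age cannot be told apart here. For some genes the values of T2L brains (dissected 8 days after egg laying) and of CDXY brains (C(1)DX/Y, the other control stock, dissected 5 days after egg laying) are given beside them, and for a pair of genes those of CDXX brains (C(1)DX/X, dissected 8 days after egg laying).

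Compound autosomes have to be kept as closed stocks, because their carriers do not give viable offspring with ordinary flies except through rare gametes. Separate laboratory stocks of the fly carry different sequence variants, transposon insertions, deletions and duplications, and genes of detoxification, immunity, proteolysis and odour sensing are known to vary among them. The late larval brain holds dividing neuroblasts, neurons, glia and a growing optic lobe, and small pieces of the ring gland, trachea, fat body and eye discs can stay attached when it is dissected.

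Total counts were 24.1 to 26.3 M in the C2L libraries and 24.9 to 26.7 M in the Oregon libraries. Genes on 2L stood 0.002 on the log2 scale above all other genes in C2L relative to Oregon (difference of medians, 1562 genes on 2L), with −0.014, 0.015 and 0.01 within batches 4, 5 and 6. The same difference was 0.535 for T2L over C2L and 0.534 for T2L over Oregon. Neuron markers were present in both groups: all 12 were measured, and their summed level was 2340 to 3140 CPM in C2L and 2180 to 3540 CPM in Oregon (CPM, counts scaled to library depth). The pan-neuronal gene elav averaged 378 ± 110 CPM in C2L and 327 ± 54.4 CPM in Oregon (SD, n = 3 each), and the glial gene repo 127 ± 33.4 CPM in C2L and 126 ± 11.6 CPM in Oregon. The splicing regulator Sxl was at 392 ± 32.4 CPM in C2L and 383 ± 49.1 CPM in Oregon. Of the dosage compensation complex, roX1 was at 188 ± 45.3 CPM in C2L and 228 ± 84.9 CPM in Oregon. Its other gene here, msl-2, was at 38.9 ± 2.76 CPM in C2L and 42.1 ± 3.58 CPM in Oregon, and neither was called. Counts per gene do not separate splice forms, and the sex of the larvae was not tested. FDY, a Y-linked gene with an autosomal parent, was at 107 ± 13.0 CPM in C2L and 116 ± 12.1 CPM in Oregon.

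The C2L and Oregon brains differed in a small part of the transcriptome, with large differences in single genes. In the 33 lists of pathways, cell types and gene families, 2.74% of the tested genes were called, near the share of all tested genes. Of 8981 genes tested, 192 were called (2.14%, edgeR quasi-likelihood test, Benjamini-Hochberg adjusted p under 0.05), 81 higher in C2L (0.902%) and 111 lower (1.24%). Of these 35 were at least 2-fold higher and 65 at least 2-fold lower, and 20 were at least 4-fold higher and 39 at least 4-fold lower. The median size of a called change was 1.11 on the log2 scale, while the median over all tested genes was 0.001. In all 192 the C2L libraries did not overlap the Oregon libraries, which was so for 14.1% of all tested genes. Genes known only by a CG number made up 75 of the 192 called genes and 2748 of the 8981 tested. By arm, 32 of 1564 genes were called on X (2.05%), 24 of 1562 on 2L (1.54%), 41 of 1769 on 2R (2.32%), 42 of 1750 on 3L (2.4%) and 36 of 2171 on 3R (1.66%). Higher and lower calls were 16 and 8 on 2L, 8 and 24 on X, and 14 and 27 on 2R. They were 19 and 23 on 3L and 11 and 25 on 3R. On chromosome 4 the count was 14 of 87 (16.1%). The number of called genes depended on the tool and the libraries used: it was 356 with DESeq2, 109 with only the 6 libraries compared, and 121 without C2L replicate 6.

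**Figure D1:**
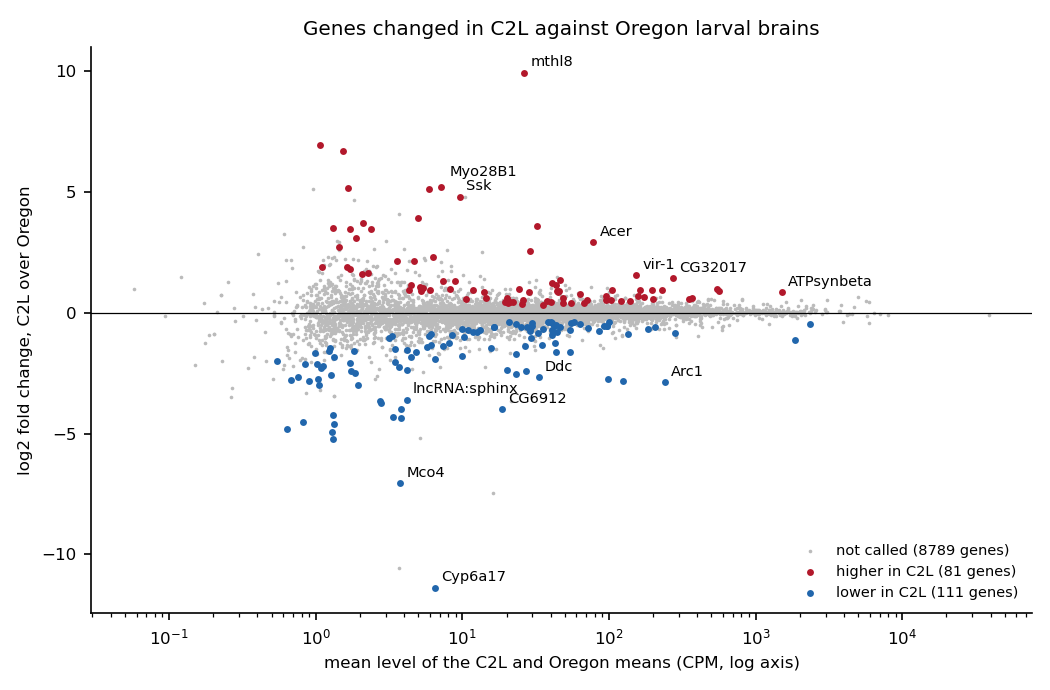
Log2 fold change of C2L over Oregon (y axis) against the mean of the group means in CPM (x axis, log scale), with 1 point for each of 8981 genes. Called genes (81 higher in red, 111 lower in blue) lie at all levels of expression, and mthl8 and Cyp6a17 mark the ends of the range.

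The largest rise was in mthl8, which codes for a receptor of the Methuselah-like family of G protein-coupled receptors. Its level was 46.8, 57.6 and 53.8 CPM in the C2L libraries of batches 4, 5 and 6, against 0, 0.144 and 0 CPM in the Oregon libraries. With 4101 counts summed in C2L and 4 in Oregon, the ratio was 1070, with a 95% counting interval of 418 to 3940 (edgeR QL adjusted p = 4.91e-06). The gene (FBgn0052475) lies near the tip of 3L at 22428 to 26308 (dm6). T2L brains held 32.6 CPM and CDXY brains 0.728 CPM, so that the gene was near 0 in both groups without C(2L)SH1 shown here.

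Ssk, which codes for the septate junction protein Snakeskin of gut and tubule epithelia, was at 15.1, 22.5 and 18.1 CPM in C2L and 0.385, 0.935 and 0.65 CPM in Oregon. As in all called genes, the C2L libraries did not overlap the Oregon libraries. The log2 fold change was 4.81 ± 0.32 (SE, edgeR QL adjusted p = 3.99e-06). Acer, which codes for a protein related to angiotensin-converting enzyme, was at 141, 136 and 137 CPM in C2L and 17.6, 19.1 and 17.6 CPM in Oregon. Its libraries were tight within both groups, with a log2 fold change of 2.93 ± 0.22 (SE, edgeR QL adjusted p = 9.67e-06). T2L averaged 153 CPM and CDXY 20.2 CPM. Acer lies on 2L, of which T2L larvae hold an extra copy. The unnamed protein gene CG17186 was as even, at 49.7, 49.1 and 50.7 CPM in C2L and 9.55, 7.12 and 8.49 CPM in Oregon (log2 fold change 2.57, edgeR QL adjusted p = 7.45e-07).

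The myosin gene Myo28B1 averaged 13.9 ± 3.48 CPM in C2L and 0.369 ± 0.0143 CPM in Oregon, and CG6592 11.6 ± 2.7 CPM in C2L and 0.331 ± 0.0272 CPM in Oregon. In these genes the T2L values were spread between the groups, at 0.568, 1.93 and 5.63 CPM for Myo28B1 and 3.26 to 3.93 CPM for CG6592. Myo28B1 lies on 2L, of which T2L larvae hold an extra copy. An ABC transporter gene of 2R (FBgn0010549) averaged 59.6 ± 12.3 CPM in C2L, 42 CPM in T2L, 1.92 CPM in CDXY and 4.92 ± 1.46 CPM in Oregon, a log2 fold change of 3.59 over Oregon. ChLD3, a gene of the chitin deacetylase family, averaged 7.67 ± 2.26 CPM in C2L and 1.72 ± 0.351 CPM in Oregon. Another of the 12 largest rises was vir-1, named for its induction by virus infection, at 257, 238 and 189 CPM in C2L and 65.4, 86.7 and 81.4 CPM in Oregon (log2 fold change 1.55). CG4839 completed the protein-coding genes among them (5.88 ± 2.05 CPM in C2L and 1.32 ± 0.438 CPM in Oregon), and it was no longer called without C2L replicate 5 (edgeR QL adjusted p = 0.0549) or with only the 6 libraries compared (0.0682). The other two were long noncoding RNAs, lncRNA:CR46123 with a log2 fold change of 3.94 and lncRNA:CR44834 with 2.29.

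Cyp6a17, a cytochrome P450 gene of 2R known for its part in temperature preference, had the largest fall. It had no count in any C2L library, while the Oregon libraries held 8.48, 11 and 19.7 CPM and 1070 counts in sum. Set against a floor of 3 counts over the C2L group (0.0385 CPM), it was at least 339-fold lower in C2L (edgeR QL adjusted p = 0.00128). T2L brains held 32.3, 18.9 and 15.3 CPM and CDXY brains 8.21, 3.85 and 15.2 CPM, so that C2L alone lacked its reads among these 4 groups. Its neighbour Cyp6a23, whose sequence is similar, averaged 0.348 ± 0.435 CPM in C2L and 1.34 ± 0.572 CPM in Oregon and was not called (edgeR QL adjusted p = 0.384).

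Mco4, which codes for a multicopper oxidase, was at 0.037, 0.116 and 0 CPM in C2L and 9.13, 7.23 and 6.1 CPM in Oregon. The 4 counts in C2L against 607 in Oregon gave a 145-fold lower level, with a counting interval of 56.4 to 535 (edgeR QL adjusted p = 0.000871). Here Oregon was the group that stood apart, since T2L averaged 0.027 CPM and CDXY 0.0815 CPM, and C2L against CDXY was not called (edgeR QL adjusted p = 0.868). CG11617, a gene of 2L, had the same layout, with 0.399 ± 0.127 CPM in C2L, 0.978 CPM in T2L, 0.395 CPM in CDXY and 5.13 ± 0.573 CPM in Oregon. KLHL18 and GCC185, neighbours on 3R that were both called lower, were likewise at 40.6 and 25.3 CPM in C2L, 38.5 and 25.1 CPM in CDXY, and 67.3 and 59.7 CPM in Oregon.

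CG6912 and asRNA:CR45600, an antisense-named RNA gene, overlap at their ends on 3R and fell together. CG6912 was at 2.33, 1.81 and 2.52 CPM in C2L and 33.9, 40.7 and 30.5 CPM in Oregon, a log2 fold change of −3.98 ± 0.17 (SE; edgeR QL adjusted p = 6.75e-08). asRNA:CR45600 averaged 0.345 ± 0.0894 CPM in C2L and 7.25 ± 2.01 CPM in Oregon. As in all called genes, the groups did not overlap in either gene. Since both are annotated on the same strand, reads in the overlap cannot be told apart. The serpin gene Spn47C averaged 0.451 ± 0.0708 CPM in C2L and 7.19 ± 0.784 CPM in Oregon, CG7386 0.319 ± 0.113 CPM in C2L and 6.37 ± 0.306 CPM in Oregon, and CG4594 0.382 ± 0.152 CPM in C2L and 5.19 ± 1.51 CPM in Oregon.

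Another of the 12 largest falls was in Arc1, whose protein is related to retroviral Gag, forms capsids and carries its own RNA between cells at the fly neuromuscular junction. Arc1 was at 45.1, 64.2 and 65.1 CPM in C2L and 373, 478 and 414 CPM in Oregon, and the log2 fold change was −2.86 ± 0.28 (SE; edgeR QL adjusted p = 9.24e-05). The groups were far apart, while T2L varied more, at 230, 139 and 337 CPM, and CDXY was at 338, 342 and 457 CPM. CR10102, next to Arc1 on 2R, fell by 2.82 on the log2 scale, and Arc2, the related gene on its other side, by 2.25 (1.29 ± 0.105 CPM in C2L and 6.13 ± 0.673 CPM in Oregon). CG6357 and CtsL2, adjacent genes of cathepsin-like cysteine proteases on 2R, also fell together. CG6357 was at 34.4, 24 and 17.8 CPM in C2L and 282, 129 and 103 CPM in Oregon, and CtsL2 had 3 counts in C2L against 100 in Oregon, a 31.9-fold lower level with a counting interval of 10.6 to 157.

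**Figure D2:**
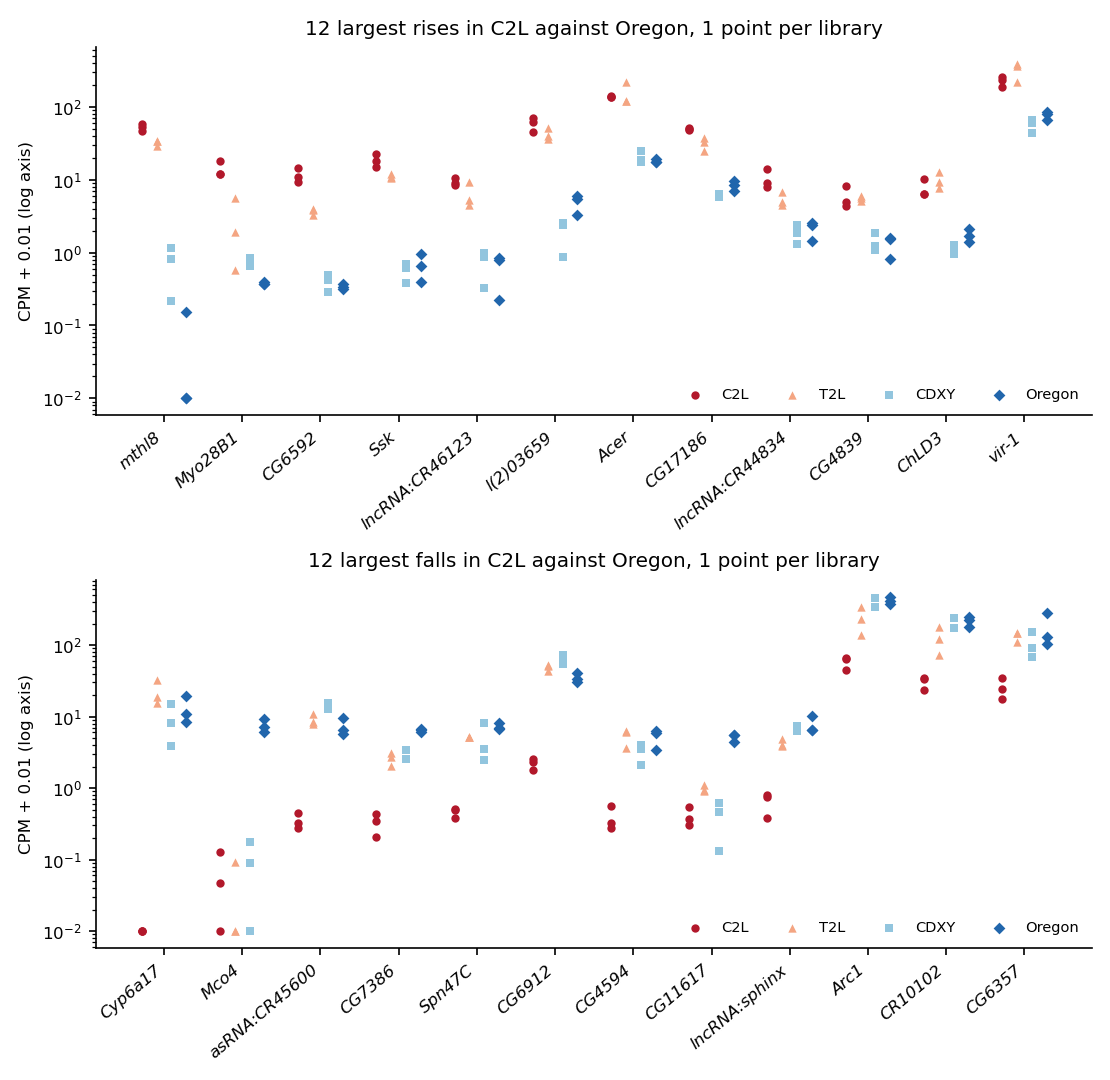
Levels of the 12 largest rises and 12 largest falls among genes with at least 5 CPM in the higher group, with 1 point per library on a log axis of CPM + 0.01, in the order C2L, T2L, CDXY and Oregon. For Mco4 and CG11617 the CDXY libraries lie with C2L, and for the rises other than mthl8 they lie with or near Oregon. For mthl8 the CDXY libraries, at 1.16, 0.818 and 0.205 CPM, lie between Oregon and C2L on this axis.

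The other called genes with at most 3 counts in 1 group and at least 1 CPM in the other were rises. CG18063 had 165 counts in C2L and 1 in Oregon, a ratio of 172 with an interval of 30.5 to 6850, and CG42538 had 236 counts in C2L and 2 in Oregon, a ratio of 123 with an interval of 33.8 to 1020. Their levels were low, at 2.12 ± 0.349 CPM for CG18063 and 3.03 ± 0.189 CPM for CG42538 in C2L. T2L brains held 3.33 CPM of CG18063 (on 2L, of which T2L larvae hold an extra copy) and 3.04 CPM of CG42538. CDXY brains held 0.068 CPM of CG18063 and 0.0133 CPM of CG42538. These intervals and floors cover counting error only.

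The called genes of chromosome 4, the small dot chromosome that is largely packed as heterochromatin, lay mostly at its far end. All 6 tested genes in order from toy to Zyx (989725 to 1065001, dm6) were higher in C2L, by 0.85 to 1.00 on the log2 scale with a median of 0.94, or 1.91-fold. The ends of this stretch were set by the calls themselves, as the longest run of called genes, so its high median follows from that choice. In the same libraries, the median within batches 4, 5 and 6 was 0.82, 1.01 and 0.95. The 67 tested genes before toy had a median of −0.02, with 0 higher and 3 lower. The 14 genes after Zyx had a median of 0.49, with 5 higher and 0 lower.

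The 6 genes differ in what they do. toy, a Pax6 gene of eye and brain development, was at 203, 319 and 251 CPM in C2L and 142, 140 and 121 CPM in Oregon. PlexA, which codes for a semaphorin receptor in axon guidance, was at 616, 849 and 716 CPM in C2L and 354, 388 and 349 CPM in Oregon. ATPsynbeta, the catalytic beta subunit of mitochondrial ATP synthase, was at 1900, 1970 and 1960 CPM in C2L and 942, 1020 and 1290 CPM in Oregon. As in all called genes, the C2L libraries of these 3 did not overlap the Oregon libraries. CaMKII, a calcium-dependent kinase of synapses, averaged 735 ± 139 CPM in C2L and 390 ± 52.5 CPM in Oregon, and Zyx, the zyxin of focal adhesions, 303 ± 37.8 CPM in C2L and 159 ± 1.25 CPM in Oregon. CG11076 averaged 138 ± 11.8 CPM in C2L and 70.7 ± 7.77 CPM in Oregon. Its 5′ end overlaps that of ATPsynbeta on the other strand, and without the strand setting reads in the overlap cannot be told apart. The adjusted p-values ran between 9.14e-05 for CG11076 and 0.00763 for CaMKII (edgeR QL), and toy and CaMKII were not called with only the 6 libraries compared (edgeR QL adjusted p = 0.0849 for toy and 0.0889 for CaMKII).

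The other groups placed this stretch differently. Over the same 6 genes the median log2 ratio to Oregon was 0.5 in T2L, with a range of 0.42 to 0.71, and 0.04 in CDXY, with a range of −0.05 to 0.2. C2L against CDXY gave a median of 0.89 and called all 6 higher, as it did 1.4% of all tested genes. These ratios share the Oregon or the C2L libraries and are given side by side only.

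Directly before toy lies lncRNA:sphinx, a young RNA gene known for a part in male courtship, which moved the other way. It was at 0.37, 0.733 and 0.801 CPM in C2L and 6.4, 6.51 and 10.3 CPM in Oregon, a log2 fold change of −3.60 ± 0.29 (SE; edgeR QL adjusted p = 1.8e-05). The other two falls on chromosome 4 were neighbours nearer its start, CG31999 (14.7 ± 2.62 CPM in C2L and 38.4 ± 2.77 CPM in Oregon) and yellow-h (0.218 ± 0.0796 CPM in C2L and 1.58 ± 0.605 CPM in Oregon). After Zyx, CG32017 had the largest rise of the chromosome, at 363, 427 and 411 CPM in C2L and 115, 179 and 150 CPM in Oregon (log2 fold change 1.44, edgeR QL adjusted p = 0.000237). Cals, which codes for calsyntenin, rose by 0.60, Dyrk3 by 0.66, the GTPase gene Arf4 by 0.52 and CG11155 by 0.58. Arf4 was not called with a batch term (edgeR QL adjusted p = 0.0672) or without any single C2L or Oregon library (up to 0.218). CG11155 lost its call under DESeq2 size factors (edgeR QL adjusted p = 0.0529) and without 4 of the 6 libraries in turn (up to 0.194), and Cals lost its call without 5 of the 6 (up to 0.148). With only the 6 libraries compared none of the 3 was called (edgeR QL adjusted p = 0.156 for Cals, 0.171 for Arf4 and 0.309 for CG11155), nor was Dyrk3 (0.0576), which also lost its call without 4 of the 6 libraries in turn (up to 0.0863). The gene apolpp, which codes for the lipophorin precursor and overlaps Zyx on the opposite strand, was at 459 ± 41.0 CPM in C2L and 335 ± 55.2 CPM in Oregon and was not called (edgeR QL adjusted p = 0.58).

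**Figure D3:**
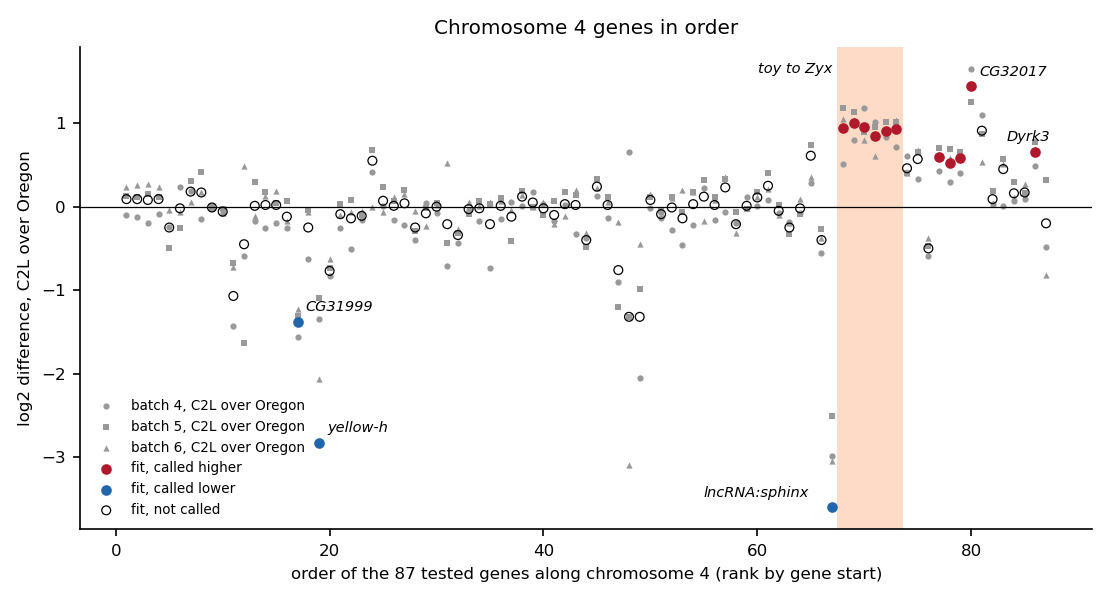
Log2 difference of C2L over Oregon for the 87 tested genes of chromosome 4 in order of their start, with the fitted value (large points, filled where called) and the difference within each batch (small grey points). The shaded stretch holds the 6 genes toy to Zyx, all near 0.94, next to lncRNA:sphinx at −3.60.

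Called genes also stood beside one another on other arms. Of the runs of neighbouring tested genes called in the same direction, 149 held 1 gene, 8 held 2, 2 held 3, 3 held 4 and 1 held 6. On 2L, 4 genes within 11992902 to 11997965 were higher in C2L, the tandem copies Ada1-2 and Ada1-1, CG18789 and Qtzl, a young chimeric gene. Ada1-1 was at 23.1, 25.6 and 23.9 CPM in C2L and 14, 16.5 and 17.7 CPM in Oregon. The counts of Ada1-1 and Ada1-2 differed by 4.69% to 19% within a library, and whether they share reads was not tested. The rises were small, 0.37 to 0.59 on the log2 scale, and C2L lay near CDXY, with 24.2 CPM of Ada1-1 and 28.9 CPM of Qtzl in C2L against 21.3 and 31.9 CPM in CDXY. None of the 4 kept its call with only the 6 libraries compared (edgeR QL adjusted p = 0.123 to 0.202), and Qtzl also lost it when any single library was left out (0.0597 to 0.136). Ada1-2 lost it without any single C2L library or without Oregon replicate 4 or 5 (edgeR QL adjusted p = 0.0584 to 0.143). CG18789 lost it without any single C2L library or without Oregon replicate 4 or 6 (edgeR QL adjusted p = 0.052 to 0.123).

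On X, 4 genes in 17888177 to 17906025 were lower in C2L. They were Gss1 and Gss2, the genes of glutathione synthetase, the last enzyme of glutathione synthesis, and CG6788 and CR32496 beside them. Gss1 was at 81.1, 73.3 and 80.4 CPM in C2L and 127, 114 and 106 CPM in Oregon, and T2L averaged 70.6 CPM and CDXY 149 CPM. The counts of Gss1 and Gss2 differed by at most 0.253% in any library, so the reads of these near-identical copies cannot be told apart and their falls of 0.56 on the log2 scale are 1 measurement. Their call was lost without most single libraries, with adjusted p up to 0.109 for Gss1 (edgeR QL). CG6788 and CR32496 were likewise within 3 counts of each other, at 0.125 ± 0.117 CPM in C2L and 2.48 ± 0.373 CPM in Oregon for CG6788.

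On 3L, 3 genes that follow one another in 1307224 to 1318330 were higher in C2L. Ctr9, a subunit of the Paf1 elongation complex, was at 242, 240 and 234 CPM in C2L and 159, 163 and 162 CPM in Oregon, and it lost its call when any single library was left out (edgeR QL adjusted p = 0.0527 to 0.0597). Herc4, a ubiquitin ligase gene, averaged 212 ± 11 CPM in C2L and 111 ± 7.81 CPM in Oregon (log2 fold change 0.93, edgeR QL adjusted p = 7.34e-05). Between them sturkopf, which codes for a protein of lipid droplets, averaged 60.5 ± 4.24 CPM in C2L and 27.0 ± 2.97 CPM in Oregon (log2 fold change 1.16, edgeR QL adjusted p = 5.22e-05). The 3 genes in T2L were at 185, 145 and 36.9 CPM in the order Ctr9, Herc4 and sturkopf, and in CDXY at 150, 118 and 29.1 CPM.

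Pairs of neighbours included CG41284 and CG42598 in the deep part of 3L, at 0.308 and 0.371 CPM in C2L, 3.93 and 4.61 CPM in T2L, and 1.37 and 1.66 CPM in Oregon, and neither was called with only the 6 libraries compared (edgeR QL adjusted p = 0.177 and 0.105). CG32640 and CG32641, similar neighbouring genes on X, were 1.25 and 1.34 higher on the log2 scale, with CG32641 at 68, 57.3 and 72.9 CPM in C2L and 30.9, 21.2 and 26.3 CPM in Oregon. Their counts differed by 3.02% to 14.7% within a library, and whether they share reads was not tested. Unc-115a, an actin-binding protein gene of axon growth, and CG32939 beside it fell by 0.82 and 0.59. Both lost their call without 3 of the 6 libraries in turn (edgeR QL adjusted p up to 0.0882). CG32939 averaged 13.1 ± 0.189 CPM in C2L and 19.7 ± 0.73 CPM in Oregon. CG18542, nearby on 3R and also called lower, was almost the same, at 13.1 ± 0.211 CPM in C2L and 19.6 ± 0.764 CPM in Oregon. Whether CG32939 and CG18542, or CG41284 and CG42598, share reads was not tested.

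**Figure D4:**
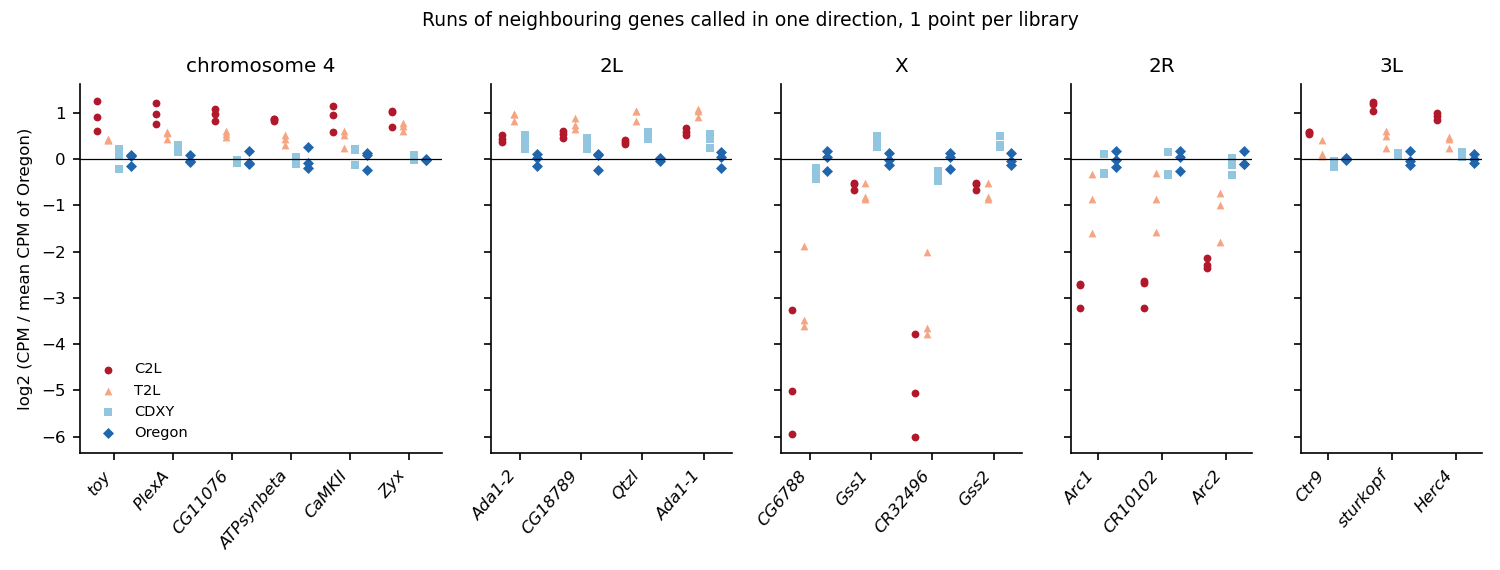
Levels of the genes in 5 of the 6 runs of at least 3 genes, as log2 of CPM over the Oregon mean with 1 point per library, by group in the order C2L, T2L, CDXY and Oregon. On chromosome 4 the T2L means lie between those of C2L and Oregon, while for Zyx and CaMKII single T2L points reach into the C2L range. On 2L the CDXY points lie with or near C2L, and on 2R the T2L points lie between C2L and Oregon.

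Most called genes were in none of the lists of pathways, cell types and gene families. The 33 lists held 949 different tested genes, of which 26 were called (2.74%, near the 2.14% of all tested genes), and 23 lists held no called gene. The other 166 called genes were in no list.

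Genes of detoxification, senses and defence gave scattered calls. The shares called were 2.86% of cytochrome P450 genes, 12.5% of odorant-binding proteins, 9.09% of chemosensory receptors and 11.1% of immune genes. Over all tested genes the share was 2.14%, and each of these list shares rests on 1 or 2 calls. Of 35 cytochrome P450 genes outside steroid synthesis, only Cyp6a17 was called, and the list had a median of −0.46 with 10 of 35 above 0. No gene was called among 22 glutathione S-transferases (median −0.28) or 11 UDP-glycosyltransferases (median −0.16). Of 8 odorant-binding proteins Obp49a rose, at 2.63, 2.82 and 1.84 CPM in C2L and 0.154, 0.36 and 0.108 CPM in Oregon (log2 fold change 3.52, edgeR QL adjusted p = 0.00244). Of 11 chemosensory receptors the sugar receptor family gene Gr61a fell, with 0.556 ± 0.157 CPM in C2L and 3.12 ± 0.457 CPM in Oregon, a call lost without C2L replicate 4 (edgeR QL adjusted p = 0.0548) or C2L replicate 5 (0.0524). Among 18 immune genes, AttB, an antibacterial peptide gene, and Bbd (bombardier), a gene needed for the action of bomanin immune peptides, fell by 1.57 and 3.00 on the log2 scale. Bbd was at 0.333, 0.347 and 0.601 CPM in C2L and 1.35, 5.61 and 3.32 CPM in Oregon, and it was not called with only the 6 libraries compared (edgeR QL adjusted p = 0.107). AttB averaged 0.616 ± 0.203 CPM in C2L and 1.83 ± 0.23 CPM in Oregon, and its call was lost with only the 6 libraries compared (0.132) and without C2L replicate 4 (0.0771), C2L replicate 6 (0.104) or Oregon replicate 4 (0.0625).

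Of 31 pigment and visible-marker genes, 2 fell (6.45% called, beside 2.14% of all tested genes), a share that rests on 2 genes. Ddc, the dopa decarboxylase that makes dopamine and serotonin, was at 8.36, 11.6 and 6.97 CPM in C2L and 44.5, 74.3 and 53 CPM in Oregon, a log2 fold change of −2.67 ± 0.29 (SE; edgeR QL adjusted p = 0.000164). The groups were well separated, and T2L averaged 28.1 CPM and CDXY 40.2 CPM. CG10561, whose end overlaps that of Ddc on 2L, rose by 0.57 (12.7 ± 0.639 CPM in C2L and 8.53 ± 0.577 CPM in Oregon) and was not called with only the 6 libraries compared (edgeR QL adjusted p = 0.153). w, the eye pigment transporter gene white, was at 7.92, 5.02 and 7.61 CPM in C2L and 50.9, 33.6 and 35.3 CPM in Oregon. The CDXY libraries split, at 30.7 CPM in batch 4 and 5.28 and 5.46 CPM in batches 5 and 6, and the call of w ended without any single C2L or Oregon library (edgeR QL adjusted p = 0.0629 to 0.162). The body colour gene y averaged 0.785 ± 0.0833 CPM in C2L and 1.58 ± 0.506 CPM in Oregon and was not called (edgeR QL adjusted p = 0.525).

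The lists of brain cell types held few called genes. With 2.14% of all tested genes called, few calls would fall in any lists of this size. Calls were absent from 33 neuron and synapse genes (median −0.13), 24 neuroblast and progenitor genes (0.01), 21 temporal identity factors (0.03) and 37 neuropeptide genes (−0.21). Of 27 optic lobe genes only toy was called. Of 24 glia genes wrapper, which codes for an immunoglobulin protein of glia, fell by 0.39 (87 ± 4.62 CPM in C2L and 114 ± 7.65 CPM in Oregon). Its call was lost without C2L replicate 5, C2L replicate 6, Oregon replicate 4 or Oregon replicate 5 (edgeR QL adjusted p up to 0.122) or with only the 6 libraries compared (0.153). The median of the glia list was −0.27 with 7 of 24 above 0, and the summed level of 7 glia markers was 696 to 1240 CPM in C2L and 931 to 1660 CPM in Oregon, which overlapped. Whether fewer cells of a type or less RNA per cell lay behind a level cannot be told apart in whole brains.

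Lists of growth and of basic cell functions also held few called genes, beside 2.14% of all tested genes. None of 48 cell cycle genes, 32 proteasome subunits, 86 cytosolic ribosomal proteins or 18 mitochondrially encoded genes was called, with medians of 0.02, 0.07, 0.01 and 0.03. Among 66 nuclear genes of the respiratory chain ATPsynbeta rose, as part of the stretch on chromosome 4, and ND-AGGG, a subunit gene of complex I, fell by 0.53. ND-AGGG averaged 75.5 ± 7.08 CPM in C2L and 109 ± 17.0 CPM in Oregon, and a batch term ended its call (edgeR QL adjusted p = 0.0539), as did leaving out 5 of the 6 libraries in turn (up to 0.158) and using only the 6 libraries compared (0.217). CG40472, the tested gene before ND-AGGG on 3L, had similar levels and was also called lower. It averaged 62.9 ± 5.27 CPM in C2L and 107 ± 17.1 CPM in Oregon, a log2 fold change of −0.77 (edgeR QL adjusted p = 0.00232). Whether CG40472 and ND-AGGG share reads was not tested. The 2 called genes among 29 stress genes were Gss1 and Gss2. None of 14 genes of glycolysis was called, though 13 of them lay below 0 with a median of −0.56, and their levels were spread within both groups. Ldh, the lactate dehydrogenase, was at 69.2, 21.7 and 28.1 CPM in C2L and 13.9, 28.7 and 137 CPM in Oregon.

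Markers of tissues that can stay on a dissected brain varied between libraries. The ring gland gene spok, an enzyme of ecdysone synthesis, was at 0.111, 113 and 231 CPM in C2L and 399, 19 and 1.12 CPM in Oregon. It was high in some libraries and near 0 in others of both groups, and none of 18 steroid and juvenile hormone genes or 27 ecdysone response genes was called. Of the 8 ring gland markers fixed, phm, spo, nvd and Npc1b were not measured. The summed level of 6 measured fat body markers was 435 to 644 CPM in C2L and 348 to 386 CPM in Oregon, and none was called, while the storage protein Lsp2 was not measured. Most of that sum was apolpp, the chromosome 4 gene that overlaps Zyx, and without it the other 5 markers overlapped, at 21.1, 49.4 and 172 CPM in C2L and 76.4, 11.2 and 15.1 CPM in Oregon. The median of those 6 markers was 1.45 on the log2 scale, with Lsp1alpha at 3.29, 3.98 and 20.1 CPM in C2L and 1.16, 1.19 and 3.25 CPM in Oregon. The 6 eye-antennal disc markers summed to 150 to 203 CPM in C2L and 197 to 322 CPM in Oregon, and of 14 trachea and eye disc genes 13 lay below 0 with none called. Summed muscle markers overlapped, at 635 to 756 CPM in C2L and 698 to 709 CPM in Oregon. The part of these tissues in the called genes was not tested.

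Long noncoding and antisense RNAs had 13 called genes among 180 (7.22%, against 2.14% of all tested genes). Of these 5 were higher and 8 lower, with a median of 0.07 over the list. They were 13 of the 26 genes called in the 33 lists. lncRNA:CR32368 rose by 3.71 on the log2 scale, at 5.77, 3.55 and 2.44 CPM in C2L and 0.385, 0.288 and 0.217 CPM in Oregon, and T2L averaged 3.5 CPM and CDXY 2.06 CPM. C2L against CDXY was not called for this gene (edgeR QL adjusted p = 0.197).

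**Figure D5:**
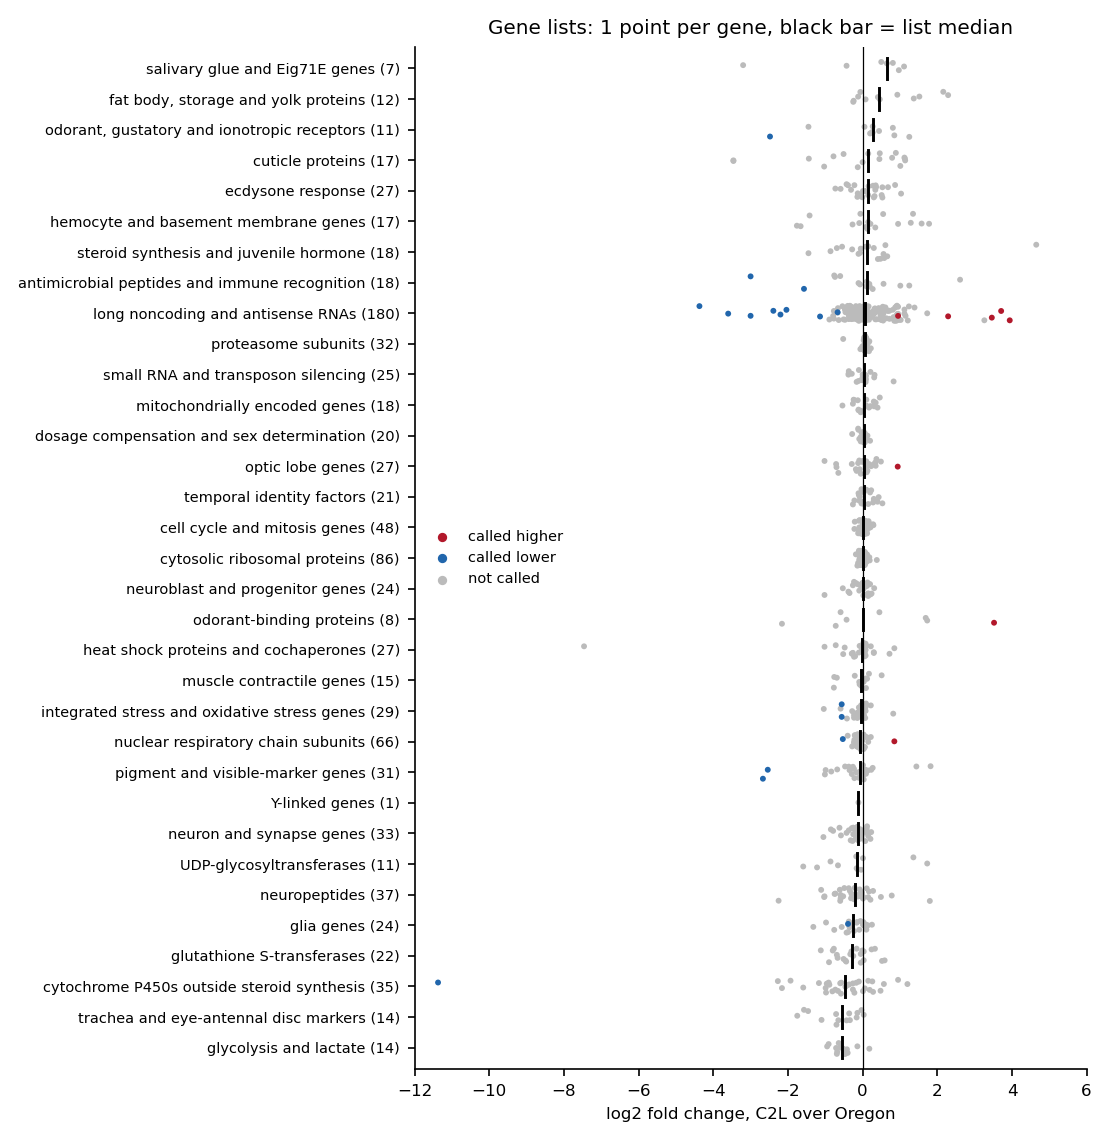
Log2 fold change of C2L over Oregon for every tested gene of the 33 lists, with 1 point per gene, the list median as a black bar and the number of tested genes in brackets. Called genes (red higher, blue lower) are scattered over 10 lists, and lists such as ribosomal proteins and cell cycle genes lie close to 0.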

How the data were processed

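Poly(A) RNA of 3 larval brains went into each of the 15 libraries, per the series design text and the labels' protocols. The deposited table holds raw read counts per gene (8990 genes), which the authors did not normalize. The submitters' processing notes name Trim Galore, STAR 2.7.10a, featureCounts and dm6; how strand and reads with several matches were handled, and which genes were kept, is not given in the sources used here. No gene had a mean count under 27. Copies and overlapping genes are therefore uncertain. Symbols and dm6 positions came from the Ensembl annotation by identifier (8939 matched, 51 did not). Groups were read from the genotype labels.

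Genes were tested with the robust quasi-likelihood F test of edgeR 4.0.16 (R 4.3.3), TMM scaling, filterByExpr (8981 genes tested, 9 removed) and 1 mean per group over all 15 libraries, two-sided, with Benjamini-Hochberg adjustment and a threshold of 0.05. The biological coefficient of variation was 24.9%. Library totals were 22.95 to 28.3 M counts (20.9 to 27.8 M after TMM scaling, which CPM values use), and differences within batches add 0.5 CPM. P-values measure the spread between the pooled libraries of a group. No library was a repeat of another (mean chi-square per gene 56 to 200 between libraries of a group). The 95% intervals of ratios are exact and cover counting error only. The scripts were checked on simulated counts.

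The members, the gene lists and the tests were chosen with earlier results of these data known. Named genes are the 12 largest rises and 12 largest falls with at least 5 CPM in the higher group and no overlap, genes with at most 3 counts in 1 group and at least 1 CPM in the other, up to 4 called genes per list, the longest runs and the label checks. Others, among them mthl8's and Mco4's counts, pairs of neighbours, Hsc70-2 and CG31157, were added after their values were seen.

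The labels give each library a batch number shared across groups, which was taken as the pairing; they do not say what a batch shared. Deviations from group means had a median correlation of 0.129 for libraries of the same batch, with 16 of 30 pairs above 0.1, and −0.066 for others; for C2L and Oregon they were −0.317, 0.237 and −0.289. Alternatives were DESeq2 1.42.0 and its size factors, 2 other filters, factors from genes off 2L and X, a batch block, only 6 libraries, and leaving out each library.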

Additional observations from a re-analysis of the deposited data

How the results depend on the processing

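The count of 192 genes called in C2L against Oregon was 356 with the DESeq2 Wald test (142 higher, 214 lower, all 192 included), 109 with only the 6 libraries compared (96 of them among the 192), and 121 to 171 with 1 library left out in turn, lowest without C2L replicate 6. It was 214 with the replicate block for batch (91 higher, 123 lower), which kept 177 of the 192 and lost 15, among them Arf4, ND-AGGG and CG7966, and 190 to 193 under the other scalings and filters. C2L against CDXY called 246 genes (126 higher, 120 lower), 401 with DESeq2, 145 with only the 6 libraries compared, 285 with the replicate block and 170 to 210 with 1 library left out. The value for 2L genes stayed between −0.006 and 0.016. Of 54 called genes taken by the naming rule, 36 kept their call under every setting run and 51 under every setting that kept all 15 libraries, while 16 lost it with only the 6 libraries compared; none of the 54 changed direction. Of 17 other called genes given with values (CG40472 and CG18542 not among them), 8 lost their call under at least 1 setting. With 3 libraries a group, small changes in variable genes can be missed, and genes with few reads were not in the table. The cause of these shifts was not tested.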

Other observations

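A pair of neighbouring genes on 3R had large differences that were not called, chosen here after their values were seen. Hsc70-2 (13044759 to 13047388, dm6), a gene of the constitutive heat shock 70 family, was at 0.296, 0.0386 and 0.2 CPM in C2L and 30, 31.4 and 35.6 CPM in Oregon. CG31157, which follows it, had 0 counts in C2L and 603 in Oregon, at 7.09, 8.02 and 7.08 CPM. In the other groups single libraries went with one or the other: Hsc70-2 was at 0.243, 24.5 and 0.0846 CPM in T2L, 27.9, 18.9 and 0.205 CPM in CDXY, and 1.88, 13.1 and 0.528 CPM in CDXX. CG31157 followed, at 0.0405, 6.72 and 0.0423 CPM in T2L and 5.6, 4.79 and 0.123 CPM in CDXY.

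In the fit over all 15 libraries, which share 1 estimate of the spread, neither gene passed (edgeR QL adjusted p = 0.149 for Hsc70-2 and 0.176 for CG31157), and leaving out single C2L or Oregon libraries gave 0.204 to 0.454. With only the 6 libraries compared both passed (edgeR QL adjusted p = 0.000583 for Hsc70-2 and 0.00322 for CG31157), as they did with the DESeq2 Wald test (adjusted p = 0.000671 and 0.000287), and with the replicate block they did not (0.0823 and 0.0729). CG7966, the next gene on the other strand, was called lower in the fit over all libraries, with 4.49 ± 1.54 CPM in C2L and 15.4 ± 7.69 CPM in Oregon (edgeR QL adjusted p = 0.0478), but not with the replicate block (0.0524), with only the 6 libraries compared (0.176) or without 5 of the 6 libraries in turn (up to 0.201).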
